A study of Mus musculus with 12 samples.

Results

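The 34 glycolysis and pyruvate metabolism genes described here are the glucose and lactate transporters, the enzymes from hexokinase to lactate dehydrogenase, the PFKFB enzymes, and the pyruvate dehydrogenase subunits and kinases. They were taken by gene symbol from the deposited table of 53465 genes. Because the symbol Aldoa stands at a pair of entries, the 34 symbols gave 35 entries. RNA-seq was performed on LSKs, the Lin- Sca-1+ c-Kit+ fraction of BM that holds hematopoietic stem and multipotent progenitor cells. There were 4 groups of 3 libraries, namely untreated wild-type mice, untreated Tespa1-/- mice, and mice of each genotype taken on day 9 of treatment with 5-fluorouracil (5-FU), a drug that kills cycling cells. The methods give male mice aged 8 to 10 weeks and a single intraperitoneal dose of 150 mg/kg. Tespa1-/- mice carried a purchased germline allele, Tespa1tm1Smoc, backcrossed to C57BL/6 for over 6 generations, so the gene was altered in every tissue and not in LSKs alone. Wild-type mice were littermates according to the labels. Nothing states whether a library came from 1 mouse or from a pool, so the p-values measure the spread between these libraries.

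Glycolysis splits glucose into pyruvate and yields ATP without oxygen. Hexokinases trap glucose inside the cell, phosphofructokinase is the main control point of the chain, and lactate dehydrogenase regenerates NAD+ by turning pyruvate into lactate. Alternatively, the pyruvate dehydrogenase complex passes pyruvate to the mitochondria as acetyl-CoA, and the PDK kinases switch that complex off. Resting hematopoietic stem cells in the hypoxic BM are known to rely on glycolysis and on PDK activity, while cycling progenitors draw more on mitochondria.

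The libraries held 22118154 to 28275079 counted reads each. Levels are read counts per 1000000 counted reads (CPM), scaled with TMM factors. Tespa1 itself was checked first. It stood at 49.8, 43.0 and 46.5 CPM in the 3 untreated wild-type libraries and at 34.5, 35.0 and 34.9 CPM in the untreated Tespa1-/- libraries, and at 47.2, 55 and 57.4 CPM against 20.8, 19.8 and 17.3 CPM after 5-FU. Its reads were thus lower in every Tespa1-/- library but not absent. Markers of other cells moved with 5-FU in both genotypes and set the treated Tespa1-/- libraries apart. The summed level of 12 neutrophil markers was 1051 to 1056 CPM there and 2.54 to 13.3 CPM in the other 9 libraries, with Cd177 at 0 in all 9. Likewise, 12 erythroid markers summed to 844 to 889 CPM against 148 to 280 CPM, and 16 G2/M genes to 4263 to 4351 CPM against 2902 to 3072 CPM. The 6 LSK gate genes, Kit and Ly6a among them, summed to 711 to 750 CPM there and 1139 to 1535 CPM elsewhere. They did not all move 1 way. With 5-FU 1 was called higher and 2 lower in wild-type LSKs, and 1 higher and 3 lower in Tespa1-/- LSKs. Of all tested genes, 3.77% were higher and 4.18% lower in the former, and 10.7% and 8.64% in the latter. In both genotypes 5-FU went with higher sums of 8 B cell markers, from 62.1 to 72.6 CPM in untreated to 279 to 285 CPM in treated wild-type LSKs and from 39.4 to 44.3 CPM to 304 to 328 CPM in Tespa1-/- LSKs. The 8 megakaryocyte markers summed to 80.5 to 107 CPM in the untreated and 214 to 285 CPM in the treated libraries of both genotypes. In wild-type LSKs 7 of 7 tested B cell, 4 of 6 megakaryocyte, 5 of 9 erythroid and 2 of 6 neutrophil markers were called higher with 5-FU. Of all tested genes 3.77% were. The erythroid sum in wild-type LSKs was 148 to 173 CPM untreated and 257 to 280 CPM after 5-FU. The part of these shifts in the 5-FU and genotype results was not tested, and in sorted bulk cells another mix of cells and another amount of RNA per cell cannot be told apart.

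As among all genes, fewer members were called with 5-FU in wild-type LSKs than in the comparisons with treated Tespa1-/- LSKs. A gene was called when its adjusted p in edgeR's quasi-likelihood test was below 0.05. In wild-type LSKs, 0 of 35 entries were higher after 5-FU and 2 were lower, namely Slc2a1 and Gapdh, where 3.77% of all tested genes were called higher and 4.18% lower. With edgeR's p unadjusted and under 0.05 there were 4 entries higher, and DESeq2 called 1 higher. In Tespa1-/- LSKs, 9 of the 34 tested entries rose after 5-FU and 1 fell, against 10.7% and 8.64% of all genes. Between untreated genotypes, 1 of 34 was higher in Tespa1-/- and 5 were lower, against 1.64% and 3.59%. After 5-FU, 8 of 35 were higher in Tespa1-/- and 4 were lower, against 7.34% and 5.78%. Single libraries moved these counts. Between treated genotypes 4 were higher without treated wild-type library 1 and 5 without library 2, and 1 was lower without treated wild-type library 3 and 2 without treated Tespa1-/- library 1 or 2. Between untreated genotypes 0 were higher by edgeR without any 1 library other than untreated Tespa1-/- library 2, and 3 were lower without any 1 Tespa1-/- library. With 5-FU in wild-type LSKs 1 was higher without treated library 1, and 1 was lower without that library or any 1 untreated library. The median log2 fold change of the members was 0.05, 0.12, -0.01 and 0.17 in this order of comparisons, and that of all tested genes was 0.01, -0.01, 0.01 and -0.01. In all, 16 of the 34 genes were called in at least 1 of the 4 comparisons and 18 in none. The members together took 0.278% to 0.302% of the counts in the 9 other libraries and 0.322% to 0.349% in the treated Tespa1-/- libraries.

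**Figure D1:**
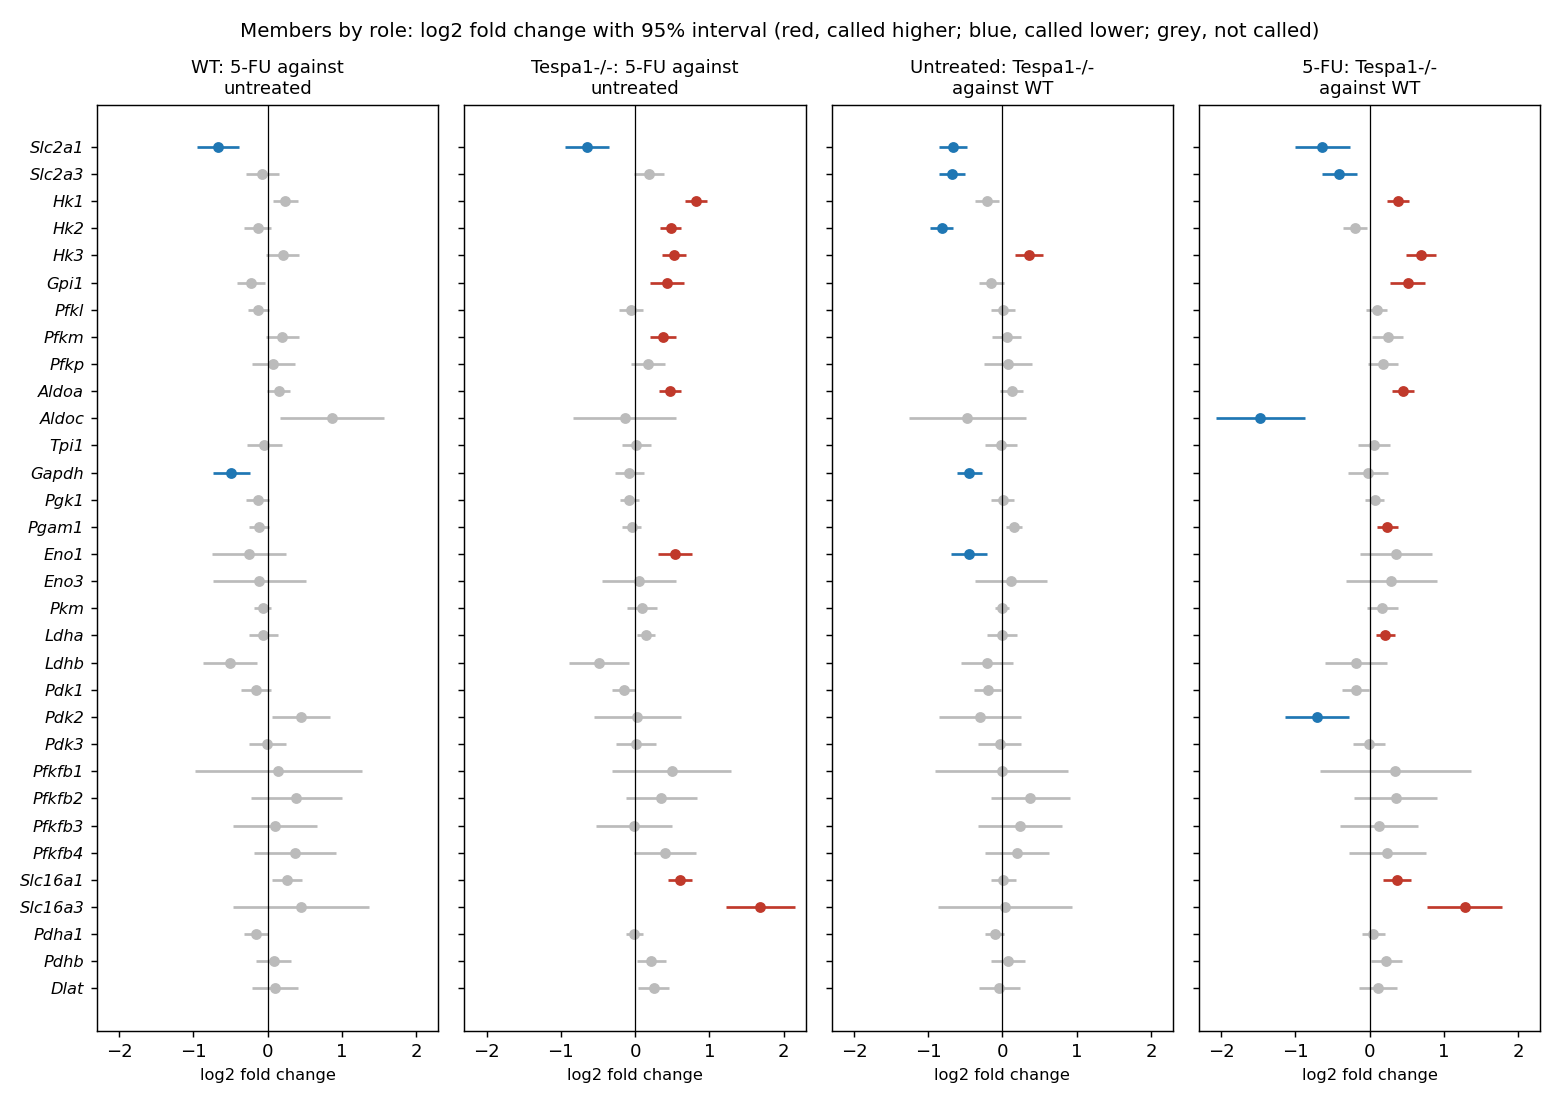
Log2 fold change of the members (points) with 95% intervals (lines) in the 4 comparisons, in rows by gene, with Pdk4, Eno2 and the second Aldoa entry left out for their few reads. Called members are red where higher and blue where lower. The red points gather in the columns on treated Tespa1-/- LSKs, and Slc2a1 is blue in every column.

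**Figure D2:**
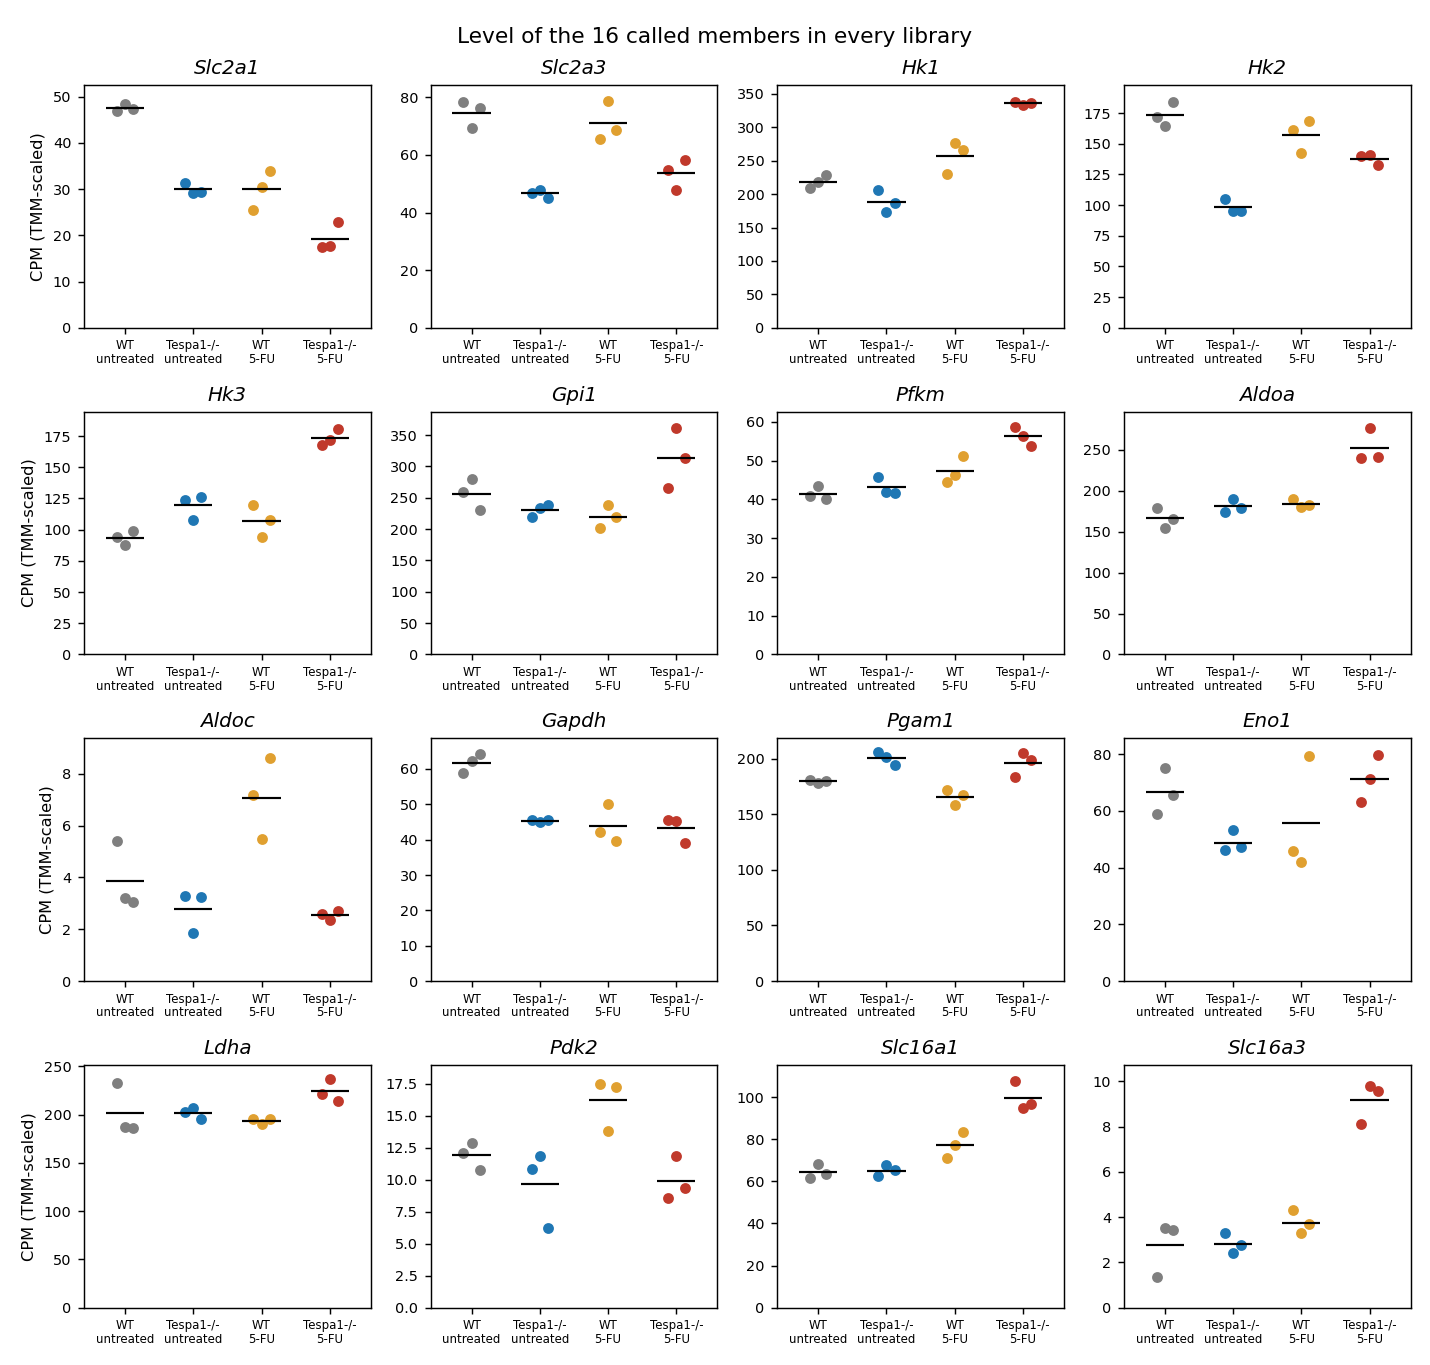
CPM of the 16 members called in at least 1 comparison, on axes from 0, with 1 point for each of the 3 libraries of a group and a line at the mean. Slc2a1 runs from 47.0 to 48.5 CPM in untreated wild-type LSKs down to 17.4 to 22.8 CPM in treated Tespa1-/- LSKs, while Hk1, Hk3, Aldoa and both lactate transporters are highest in the latter.

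In Tespa1-/- LSKs the glucose transporter gene Slc2a1 fell with 5-FU while both lactate transporter genes rose. Slc2a1 (chr4:119108711-119137983 in GRCm38) encodes GLUT1, the basal glucose transporter. It stood at 47.0, 48.5 and 47.4 CPM in untreated wild-type LSKs, 31.4, 29.2 and 29.4 CPM in untreated Tespa1-/- LSKs, 25.4, 30.5 and 33.8 CPM in treated wild-type LSKs and 17.4, 17.7 and 22.8 CPM in treated Tespa1-/- LSKs. Every treated library was below every untreated library of its genotype, and every Tespa1-/- library below every wild-type library of its treatment. It was the only member called in all 4 comparisons. It fell with 5-FU in wild-type (log2 fold change -0.67 ± 0.12, adjusted p = 0.0112) and Tespa1-/- LSKs (log2 fold change -0.65 ± 0.13, adjusted p = 0.00884). Tespa1-/- LSKs had less of it untreated (log2 fold change -0.67 ± 0.08, adjusted p = 0.00302) and after 5-FU (log2 fold change -0.64 ± 0.16, adjusted p = 0.0311). The test of whether the 5-FU response differed between genotypes gave 0.03 with a 95% interval of -0.35 to 0.42 on the log2 scale, so a difference of up to about this size could not be seen. The call after 5-FU was lost without treated wild-type library 2 or 3 or treated Tespa1-/- library 1 or 2 (log2 fold changes -0.62 to -0.54, adjusted p = 0.0876 to 0.109).

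Slc2a3 (chr6:122727809-122801640), the high-affinity transporter GLUT3, differed between genotypes and was not called with 5-FU. Its level was 78.3, 69.3 and 76.4 CPM in untreated wild-type and 46.6, 48.0 and 45.2 CPM in untreated Tespa1-/- LSKs, with no overlap (log2 fold change -0.68 ± 0.08, adjusted p = 0.00185). After 5-FU it was 65.6, 78.6 and 68.8 CPM in wild-type and 54.6, 47.9 and 58.2 CPM in Tespa1-/- LSKs (log2 fold change -0.41 ± 0.11, adjusted p = 0.0326), again without overlap. This second call was lost without treated wild-type library 2 or 3 or treated Tespa1-/- library 1 or 2 (log2 fold changes -0.43 to -0.33, adjusted p = 0.0682 to 0.113). Per length, in deposited FPKM, Slc2a1 made up 55.9% ± 1.99 (SD, n = 3) of the summed level of this pair in untreated wild-type LSKs and 56.1% ± 1.27 in untreated Tespa1-/- LSKs, but 45.5% ± 3.41 and 41.6% ± 2.58 after 5-FU.

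The lactate exporters were higher in treated Tespa1-/- LSKs. Slc16a3 (chr11:120948480-120960868) encodes MCT4, the exporter of cells with high glycolytic flux. It was low, at 1.36, 3.51 and 3.44 CPM in untreated wild-type, 3.29, 2.40 and 2.75 CPM in untreated Tespa1-/- and 4.33, 3.28 and 3.68 CPM in treated wild-type LSKs, but 8.11, 9.80 and 9.57 CPM in treated Tespa1-/- LSKs. The lowest treated Tespa1-/- library exceeded the highest of the other 9. That was 3.23-fold the untreated Tespa1-/- level (log2 fold change 1.69 ± 0.21, adjusted p = 0.000671) and 2.43-fold the treated wild-type level (log2 fold change 1.28 ± 0.22, adjusted p = 0.00535), the largest rises among the members in these 2 comparisons. Slc16a1 (chr3:104638668-104658462), which encodes the bidirectional transporter MCT1, was at 61.8, 68.1 and 63.7, 62.3, 67.5 and 65.2, 70.9, 77.2 and 83.3 and 108, 94.9 and 96.6 CPM in the groups in the same order. It rose with 5-FU in Tespa1-/- LSKs (log2 fold change 0.61 ± 0.07, adjusted p = 0.000501) and was higher there than in treated wild-type LSKs (log2 fold change 0.37 ± 0.09, adjusted p = 0.0208). The latter call was lost without treated wild-type library 1 or 2 or treated Tespa1-/- library 1 or 3 (log2 fold changes 0.31 to 0.39, adjusted p = 0.0527 to 0.0796). The 5-FU responses of Slc16a1 and Slc16a3 did not pass the test of a difference between genotypes (adjusted p = 0.0881 and 0.137).

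Promoters of 4 of the 16 called members are shown because genes of this pathway are textbook targets of the hypoxia factor HIF and of MYC. The response element of HIF can have the core ACGTG, and MYC binds the E-box CACGTG. The 250 bases before each RefSeq start site (GRCm38.p6) were searched on both strands for these runs of letters. Other forms of the HIF core were not searched, so a window without ACGTG may still hold such a form. ACGTG was found for 16 of the 33 members with an entry (48.5%; Slc2a3 had no entry), against 18.5% of all 27025 genes (by window, 38.5% of 52 against 16.6% of 32851), and CACGTG, which contains ACGTG, for 6 (18.2%) against 6.86%. A match is only a run of letters and not a bound site. Slc2a1 (chr4:119108495-119108744 on the plus strand), Slc16a3 (chr11:120948817-120949066 on the plus strand), Hk2 (chr6:82774455-82774704 on the minus strand) and Hk3 (chr13:55021386-55021635 on the minus strand) all held ACGTG, although Slc2a1 was lower and the others higher in treated than in untreated Tespa1-/- LSKs. They read as follows, 5′ to 3′, with each ACGTG of either strand in capitals.
Slc2a1: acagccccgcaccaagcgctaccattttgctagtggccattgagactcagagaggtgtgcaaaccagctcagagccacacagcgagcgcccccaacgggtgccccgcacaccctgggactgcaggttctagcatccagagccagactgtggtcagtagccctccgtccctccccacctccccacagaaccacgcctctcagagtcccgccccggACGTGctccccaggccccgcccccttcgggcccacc
Slc16a3: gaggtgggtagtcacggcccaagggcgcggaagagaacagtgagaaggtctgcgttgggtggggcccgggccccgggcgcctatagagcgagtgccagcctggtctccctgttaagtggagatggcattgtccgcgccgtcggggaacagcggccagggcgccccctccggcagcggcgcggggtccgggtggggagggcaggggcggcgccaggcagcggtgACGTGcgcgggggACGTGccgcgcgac
Hk2: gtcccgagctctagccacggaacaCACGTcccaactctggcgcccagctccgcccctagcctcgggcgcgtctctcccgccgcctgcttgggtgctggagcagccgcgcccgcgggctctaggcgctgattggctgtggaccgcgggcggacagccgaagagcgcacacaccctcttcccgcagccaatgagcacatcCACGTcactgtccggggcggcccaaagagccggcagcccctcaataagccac
Hk3: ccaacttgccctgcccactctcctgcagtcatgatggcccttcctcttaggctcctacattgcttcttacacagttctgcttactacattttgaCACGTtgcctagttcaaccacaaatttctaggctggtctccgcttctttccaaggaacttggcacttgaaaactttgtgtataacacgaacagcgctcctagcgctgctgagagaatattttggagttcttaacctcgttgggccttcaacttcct
Of the 9 members that rose with 5-FU in Tespa1-/- LSKs, 6 held ACGTG in a window (Hk2, Hk3, Pfkm, Aldoa, Slc16a1 and Slc16a3) and 3 did not (Hk1, Gpi1 and Eno1).

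Among the hexokinases, Hk2 was lower and Hk3 higher in untreated Tespa1-/- than in untreated wild-type LSKs. Hk2 (chr6:82725025-82774454), the inducible isozyme that binds mitochondria, was at 172, 164 and 184 CPM in untreated wild-type and 105, 95 and 95.2 CPM in untreated Tespa1-/- LSKs, the largest called fall among the members in that comparison (log2 fold change -0.82 ± 0.07, adjusted p = 0.000385). After 5-FU it was at 162, 143 and 168 CPM in wild-type and 140.0, 141 and 132 CPM in Tespa1-/- LSKs. It thus rose 1.39-fold with 5-FU in Tespa1-/- LSKs (log2 fold change 0.48 ± 0.06, adjusted p = 0.000849), and the genotypes then no longer passed the test (log2 fold change -0.20 ± 0.07, adjusted p = 0.117), though their libraries did not overlap. In wild-type LSKs the 5-FU difference was -0.14 ± 0.08, and the responses differed between genotypes by 0.63 ± 0.10 on the log2 scale (adjusted p = 0.00289).

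Hk1 (chr10:62268855-62379908), the housekeeping isozyme, was at 209, 219 and 229 CPM in untreated wild-type, 206, 174 and 187 CPM in untreated Tespa1-/-, 231, 276 and 265 CPM in treated wild-type and 338, 333 and 336 CPM in treated Tespa1-/- LSKs. The 3 treated Tespa1-/- libraries lay close together and above all others. Hk1 rose 1.76-fold with 5-FU in Tespa1-/- LSKs (log2 fold change 0.82 ± 0.06, adjusted p = 4.73e-05), was 1.30-fold higher than in treated wild-type LSKs (log2 fold change 0.38 ± 0.07, adjusted p = 0.00565), and responded differently by genotype (difference 0.59 ± 0.10, adjusted p = 0.00449). Hk3 (chr13:55005985-55021385), an isozyme of myeloid cells and neutrophils in particular, was at 93.8, 87.4 and 98.6, 124, 108 and 126, 119.8, 93.8 and 107 and 168, 172 and 181 CPM in the same order. It was higher in treated Tespa1-/- LSKs than in treated wild-type LSKs (log2 fold change 0.69 ± 0.09, adjusted p = 0.00101) and than in untreated Tespa1-/- LSKs (log2 fold change 0.53 ± 0.07, adjusted p = 0.00111). In untreated LSKs Hk3 was also higher in Tespa1-/- (log2 fold change 0.36 ± 0.08, adjusted p = 0.0419), although that call was lost without untreated wild-type library 1 or 2 or 3 or untreated Tespa1-/- library 1 or 3 (log2 fold changes 0.31 to 0.40, adjusted p = 0.0567 to 0.174) and with no filter on low counts (adjusted p = 0.0708). The neutrophil markers, whose part was not tested, summed to 6.94 to 8.04 CPM in untreated Tespa1-/- and 2.54 to 2.67 CPM in untreated wild-type LSKs, against 1051 to 1056 CPM and 9.14 to 13.3 CPM after 5-FU.

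Compared per length, Hk2 took a larger share of the hexokinase level in wild-type than in Tespa1-/- LSKs. By FPKM, Hk2 gave 43.4% ± 0.490 (SD, n = 3) of the summed hexokinase level in untreated wild-type LSKs and 37.4% ± 1.61 after 5-FU. In Tespa1-/- LSKs it gave 29.2% ± 1.24 untreated and 26.6% ± 1.03 after 5-FU, below Hk3 with 39.8% ± 1.65 and 37.5% ± 1.22. The ranges of the Hk2 share did not overlap between genotypes under either treatment. Hk1 lay between 29.4% and 38.1% over the 12 libraries. Its range overlapped that of Hk2 in part in treated wild-type LSKs (30.1% to 38.1% against 35.6% to 38.6%) and in untreated Tespa1-/- LSKs (30.4% to 31.9% against 27.9% to 30.4%).

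**Figure D3:**
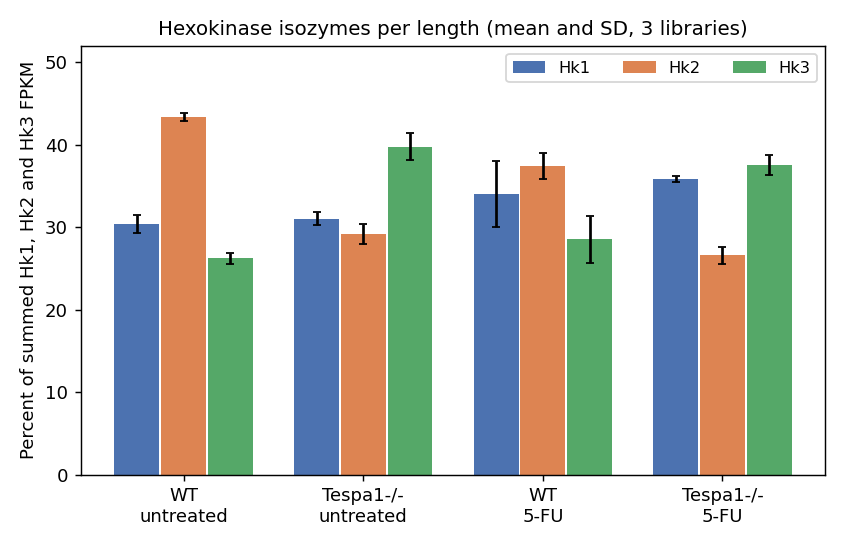
Share of Hk1, Hk2 and Hk3 in their summed FPKM, in percent (bars, mean; lines, SD of 3 libraries), for the 4 groups. The Hk2 bar has the highest mean in both wild-type groups and the lowest in both Tespa1-/- groups, though the ranges of Hk1 and Hk2 overlap in part in treated wild-type and in untreated Tespa1-/- LSKs.

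In upper glycolysis, 3 of 8 entries rose with 5-FU in Tespa1-/- LSKs, namely Gpi1, Pfkm and Aldoa, where 10.7% of all genes were called higher. Gpi1 (chr7:34201330-34230336), glucose-6-phosphate isomerase, was at 259, 279 and 231 CPM in untreated wild-type, 220.0, 234 and 238 CPM in untreated Tespa1-/-, 201, 238 and 219 CPM in treated wild-type and 265, 361 and 313 CPM in treated Tespa1-/- LSKs. The treated Tespa1-/- libraries spread widely, and only the lowest of them overlapped the untreated wild-type range. Gpi1 rose with 5-FU in Tespa1-/- LSKs (log2 fold change 0.43 ± 0.10, adjusted p = 0.0157), exceeded the treated wild-type level (log2 fold change 0.51 ± 0.11, adjusted p = 0.0128), and responded differently by genotype (difference 0.66 ± 0.14, adjusted p = 0.0167). The first call was lost without untreated Tespa1-/- library 1 or 2 (log2 fold changes 0.40 to 0.44, adjusted p = 0.0545 to 0.0637), the second without treated wild-type library 1 (log2 fold change 0.45, adjusted p = 0.0528) and the last without untreated Tespa1-/- library 1 (log2 fold change 0.63, adjusted p = 0.05004). The copy Gm1840 held 27.9% of the counts of Gpi1, and with it added the differences were 0.40, 0.51 and 0.62 in the same order (adjusted p = 0.00694, 0.00333 and 0.00896). Aldoa (chr7:126795234-126800751), the main aldolase, was at 179, 154 and 165, 174, 191 and 179, 189, 180.0 and 183 and 239.9, 277 and 242 CPM in the same order, with the 3 treated Tespa1-/- libraries above all others. It was 1.38-fold its untreated level (log2 fold change 0.47 ± 0.07, adjusted p = 0.00148) and 1.37-fold the treated wild-type level (log2 fold change 0.45 ± 0.07, adjusted p = 0.00210). The second Aldoa entry held 0.64 to 2.53 CPM and was not called.

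Pfkm (chr15:98092589-98132447), the muscle-type phosphofructokinase, was at 45.8, 41.9 and 41.7 CPM in untreated and 58.7, 56.3 and 53.7 CPM in treated Tespa1-/- LSKs (log2 fold change 0.37 ± 0.08, adjusted p = 0.0102), without overlap. That call was lost without untreated Tespa1-/- library 2 (log2 fold change 0.35, adjusted p = 0.0515). Senp1, on the opposite strand, overlaps Pfkm and held 218% of its counts, and whether the counting used strand is not given in the sources used here. In wild-type LSKs Pfkm was at 40.8, 43.4 and 40.02 CPM untreated and 44.4, 46.4 and 51.3 CPM after 5-FU, and no other comparison called it. Pfkl and Pfkp, the liver and platelet types, and Tpi1, the triose phosphate isomerase, were not called anywhere. By FPKM, Pfkl gave 44.2% ± 0.458 of the phosphofructokinase level in untreated wild-type LSKs and 37.0% ± 1.09 in treated Tespa1-/- LSKs, and Pfkm 43.2% ± 1.94 and 50.2% ± 1.69. Aldoc (chr11:78322968-78327781), the brain-type aldolase, was called lower in treated Tespa1-/- than in treated wild-type LSKs. It was at 7.17, 5.47 and 8.59 CPM in treated wild-type and 2.59, 2.36 and 2.71 CPM in treated Tespa1-/- LSKs (log2 fold change -1.47 ± 0.27, adjusted p = 0.00656), and at 5.39, 3.20 and 3.03 and 3.29, 1.86 and 3.23 CPM in untreated LSKs. At these levels Aldoc gave at most 4.71% of the aldolase FPKM in any library.

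In lower glycolysis the Gapdh calls and the Eno1 call in untreated LSKs depended on where reads of their copies were counted. The 5-FU rise of Eno1 in Tespa1-/- LSKs was called either way. Gapdh (chr6:125161715-125166467), which oxidises glyceraldehyde 3-phosphate and was the reference gene of the study's qPCR, was at 58.9, 62.2 and 64.2 CPM in untreated wild-type LSKs. It was at 45.5, 45.0 and 45.6 CPM in untreated Tespa1-/-, 42.3, 50 and 39.5 CPM in treated wild-type and 45.6, 45.3 and 39.1 CPM in treated Tespa1-/- LSKs. These 9 libraries all lay below the 3 untreated wild-type libraries. The fall with 5-FU in wild-type LSKs (log2 fold change -0.49 ± 0.11, adjusted p = 0.0263) and the lower level in untreated Tespa1-/- LSKs (log2 fold change -0.44 ± 0.07, adjusted p = 0.0109) passed the test. The first was lost without untreated wild-type library 1 or 2 or 3 or treated wild-type library 1 or 3 (log2 fold changes -0.52 to -0.42, adjusted p = 0.0523 to 0.102) and the second without untreated Tespa1-/- library 1 or 2 or 3 (log2 fold changes -0.45 to -0.44, adjusted p = 0.0566 to 0.0731).

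These values cover only a part of the reads of Gapdh sequence. Iffo1, on the opposite strand, overlaps the gene and held 45.0% of its counts. In GENCODE M21 transcripts, 27.8% of the 50-base stretches of the longest Gapdh transcript also occur in other genes, and 76 genes share at least 100 stretches with it. Those 76 entries held 122988 counts over the 12 libraries and Gapdh itself 14184. Adding copies was chosen after the data were seen. With them, Gapdh was at 477, 474 and 499.6 CPM in untreated wild-type, 459, 454 and 469 CPM in untreated Tespa1-/-, 448, 426 and 438 CPM in treated wild-type and 509, 517 and 463 CPM in treated Tespa1-/- LSKs. The untreated Tespa1-/- libraries were still below the untreated wild-type ones, but both calls were lost, at log2 fold changes of -0.14 (adjusted p = 0.0926) for 5-FU in wild type and -0.07 (adjusted p = 0.405) for untreated genotypes. In their place, treated Tespa1-/- LSKs were 0.18 above treated wild-type LSKs (adjusted p = 0.0472), and the 5-FU responses differed between genotypes by 0.25 (adjusted p = 0.0394, against 0.101 for the entry alone). The study's Gapdh primers are shown since they amplify this reference.
Gapdh forward: cctcgtcccgtagacaaaatg
Gapdh reverse: tctccactttgccactgcaa
Both primers were found without mismatch in transcripts of Gapdh, with 100 bases from end to end in 5 of its transcripts, and of 1 other gene, the copy Gm7336, which held 6831 counts.

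Eno1 (chr4:150236721-150248879), the main enolase, shares 72.2% of the 50-base stretches of its longest transcript with other genes, the highest share among the members so measured. It was at 59.0, 75 and 65.6 CPM in untreated wild-type, 46.1, 53.2 and 47.2 CPM in untreated Tespa1-/-, 46.0, 41.9 and 79.3 CPM in treated wild-type and 63.2, 71.3 and 79.7 CPM in treated Tespa1-/- LSKs. One treated wild-type library stood far above the other two of its group. Eno1 rose with 5-FU in Tespa1-/- LSKs (log2 fold change 0.54 ± 0.10, adjusted p = 0.00615), a call lost in a fit of all 12 libraries (adjusted p = 0.0758), and its lower level in untreated Tespa1-/- LSKs was called at the threshold (log2 fold change -0.45 ± 0.11, adjusted p = 0.0499). Its 3 copies, Eno1b, Gm4735 and Gm5855, held 57462 counts against 17642 on Eno1. With them added, Eno1 was at 225, 227 and 214, 246, 244 and 243, 219, 209.6 and 243 and 321, 345 and 347 CPM, and the treated Tespa1-/- libraries stood above all others. The untreated difference then turned to 0.14 (adjusted p = 0.152). The rise with 5-FU in Tespa1-/- LSKs was 0.46 (adjusted p = 2.29e-04), the difference from treated wild-type LSKs 0.59 (adjusted p = 4.23e-04) and the difference between responses 0.46 (adjusted p = 0.00485). The untreated call on Eno1 alone was also lost without untreated wild-type library 2 or 3 or untreated Tespa1-/- library 1 or 2 or 3 (log2 fold changes -0.51 to -0.35, adjusted p = 0.0900 to 0.192), with RLE size factors (adjusted p = 0.0531), with library totals (adjusted p = 0.0560) and in a fit of all 12 libraries (adjusted p = 0.247).

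**Figure D4:**
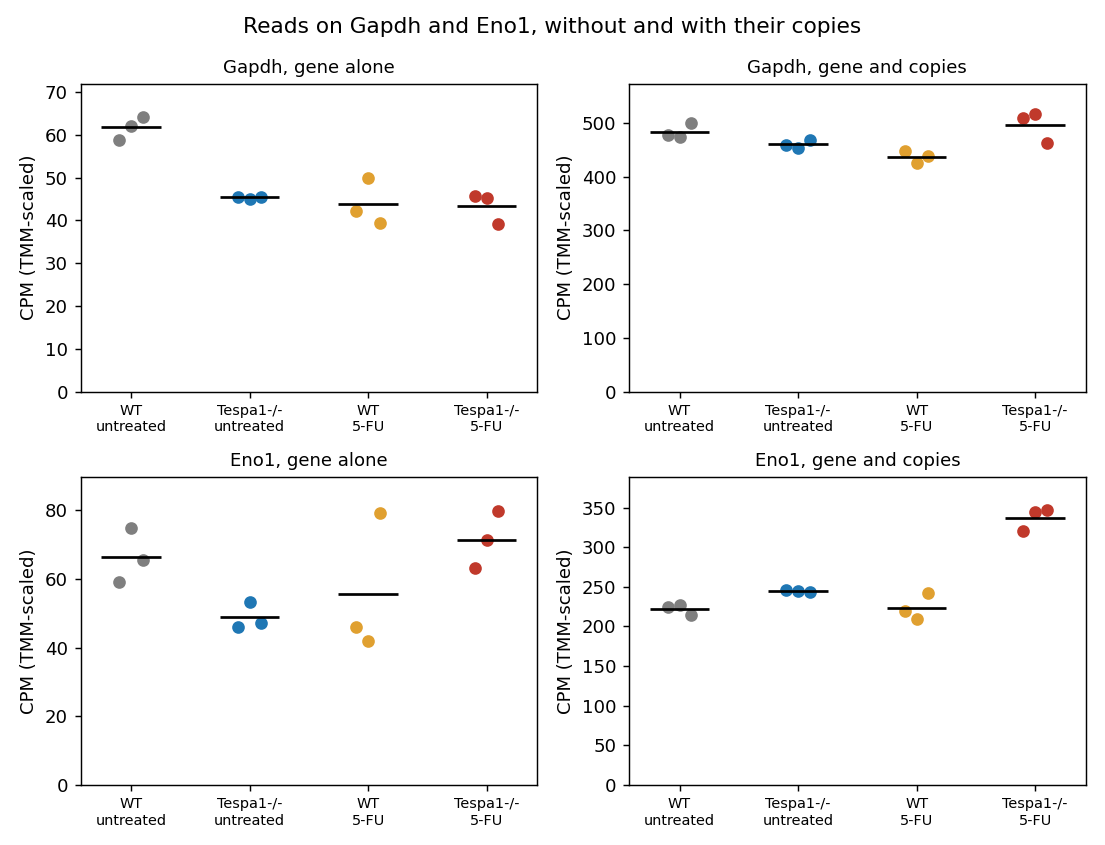
CPM of Gapdh (top) and Eno1 (bottom) for the entry of the gene alone (left) and with the counts of its copies added (right), 1 point a library, line at the mean, axes from 0. The right panels lie several times higher, and there untreated Tespa1-/- LSKs are no longer below untreated wild-type LSKs for Eno1, while for Gapdh they lie slightly below them in every library.

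Of the other enzymes of lower glycolysis, Pgam1 was called once and the rest were not called. Pgk1, which makes the first ATP of the chain, was at 137 to 164 CPM over the 12 libraries. Pkm, pyruvate kinase M and by CPM the most counted member, was at 393 to 530 CPM and was not called. Pgam1 (chr19:41911871-41918664), phosphoglycerate mutase, was at 181, 178 and 179.7 CPM in untreated wild-type and 206, 202 and 194 CPM in untreated Tespa1-/- LSKs. These did not overlap either but were not called (log2 fold change 0.16 ± 0.05, adjusted p = 0.112). After 5-FU Pgam1 was at 171, 158 and 168 CPM in wild-type and 183, 205 and 199 CPM in Tespa1-/- LSKs, a small difference without overlap (log2 fold change 0.24 ± 0.06, adjusted p = 0.0391). It was lost without treated wild-type library 1 or 2 or 3 or treated Tespa1-/- library 2 or 3 (log2 fold changes 0.20 to 0.26, adjusted p = 0.0622 to 0.126), with library totals (adjusted p = 0.0620) and with no filter (adjusted p = 0.0548). Pgk1, Pgam1 and Pkm share 68.0%, 41.5% and 34.4% of their stretches with other genes, so part of their reads may also be counted elsewhere. Eno3, the muscle enolase, was at 3.43 to 5.41 CPM and Eno2, the neuronal enolase, at 0 to 1.72 CPM, near the limit of 3 counts (0.107 to 0.136 CPM) in several libraries.

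Of the pair of lactate dehydrogenases, Ldha (chr7:46841475-46855627), the subunit that favours lactate formation, was called once. It was at 233, 187 and 186 CPM in untreated wild-type and 202, 207 and 196 CPM in untreated Tespa1-/- LSKs. After 5-FU it was at 195, 189.9 and 196 CPM in wild-type and 221, 237 and 215 CPM in Tespa1-/- LSKs, without overlap (log2 fold change 0.21 ± 0.06, adjusted p = 0.0386). The call was lost without treated wild-type library 1 or 2 or 3 or treated Tespa1-/- library 1 or 2 (log2 fold changes 0.17 to 0.22, adjusted p = 0.0791 to 0.120), with library totals (adjusted p = 0.0659), with no filter (adjusted p = 0.0617) and in a fit of all 12 libraries (adjusted p = 0.0860). Ldhb, the heart-type subunit, was at 15.0, 15.9 and 17.5 CPM in untreated wild-type and 8.84, 11.8 and 9.43 CPM in treated Tespa1-/- LSKs, and its 5-FU differences of -0.50 ± 0.16 and -0.49 ± 0.18 in wild-type and Tespa1-/- LSKs did not pass (adjusted p = 0.0977 and 0.0948). Per length, Ldha gave 78.4% ± 3.21 of the summed FPKM of both in untreated wild-type, 80.9% ± 2.59 in untreated Tespa1-/-, 83.3% ± 0.850 in treated wild-type and 86.8% ± 1.28 in treated Tespa1-/- LSKs.

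Of the genes that gate pyruvate entry to mitochondria, Pdk2 was called once. Pdha1, Pdhb and Dlat, the subunits of the pyruvate dehydrogenase complex, were not called in any of the 4 comparisons. Pdk3 was at 40.8 to 56.9 CPM and Pdk1, a HIF target, at 64.9 to 90.4 CPM, and neither was called. Pdk2 (chr11:95026258-95041354), the widely expressed kinase, was at 12.1, 12.9 and 10.7 CPM in untreated wild-type, 10.8, 11.9 and 6.20 CPM in untreated Tespa1-/-, 17.5, 13.8 and 17.2 CPM in treated wild-type and 8.55, 11.9 and 9.34 CPM in treated Tespa1-/- LSKs. After 5-FU its Tespa1-/- libraries were all below the wild-type ones (log2 fold change -0.71 ± 0.19, adjusted p = 0.0384). That call was lost without treated wild-type library 1 or 3 or treated Tespa1-/- library 1 or 3 (log2 fold changes -0.67 to -0.61, adjusted p = 0.111 to 0.124), with no filter (adjusted p = 0.0654) and in a fit of all 12 libraries (adjusted p = 0.0541). Pdk4, the starvation-induced kinase, was at 1.17, 1.08 and 0.661 CPM in treated wild-type LSKs and at 0 to 0.844 CPM elsewhere, and had too few reads to be tested in the 2 comparisons with untreated Tespa1-/- LSKs. By FPKM, Pdk3 was the leading kinase in every group, with 59.8% to 65.8% of the summed level. The PFKFB enzymes set fructose 2,6-bisphosphate, the activator of phosphofructokinase. The 4 were not called in any comparison, and Pfkfb3, the glycolysis-promoting form, ran from 35.0 to 66.4 CPM with group means of 44.6 to 52.5 CPM and SDs of 11.3 to 16.3 CPM.

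The 5-FU response differed between genotypes for 3 members, Hk1, Hk2 and Gpi1, all with the higher value in Tespa1-/- LSKs (in wild-type LSKs the responses were 0.24, -0.14 and -0.22 on the log2 scale, none of them called), and for 0 in the other direction (1 at an unadjusted p below 0.05), by the interaction test of edgeR. Of all genes 3.02% had a positive and 1.99% a negative difference. DESeq2 called 5 positive and 0 negative. With copies added there were also 5 positive, Gapdh and Eno1 among them. The fitted difference was above 0 for 28 of the 35 entries, with a median of 0.15 against -0.02 for all genes tested. The interval was wide for low genes, such as 0.29 to 2.21 for Slc16a3, but narrow for Pfkl (-0.11 to 0.28) and Pgk1 (-0.12 to 0.26). Aldoa and Hk3 gave 0.33 ± 0.10 and 0.34 ± 0.13 (adjusted p = 0.0761 and 0.160).

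**Figure D5:**
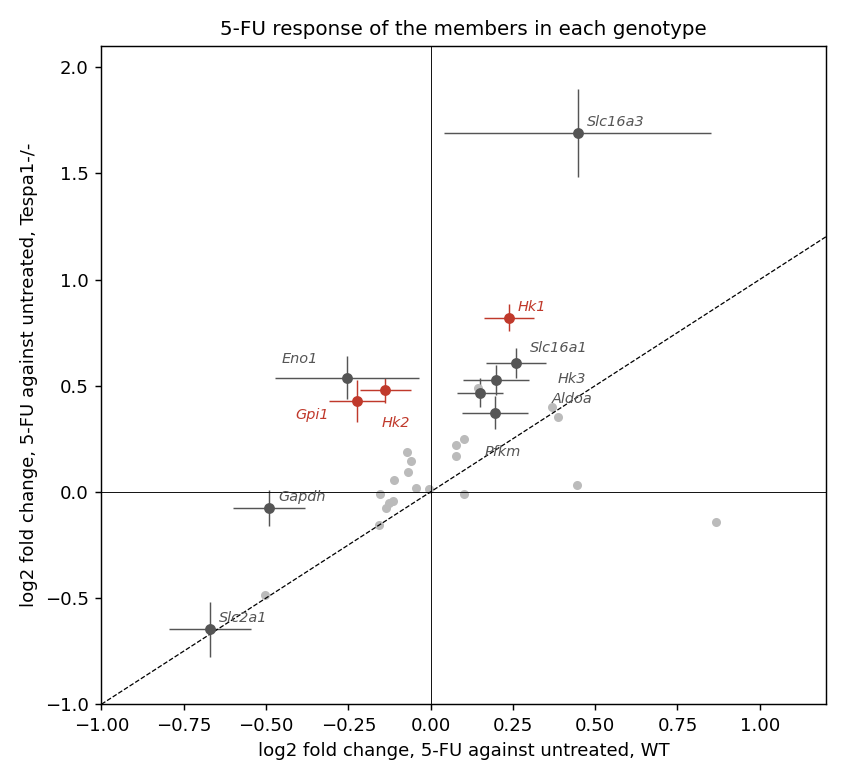
Log2 fold change of each member after 5-FU in wild-type LSKs (x axis) and in Tespa1-/- LSKs (y axis), with SE bars and names for called members. The dashed line marks equal responses, and red marks Hk1, Hk2 and Gpi1, whose responses differed in the interaction test and which lie above the line.

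The listed regulators of glycolytic genes include both drivers and genes that restrain glycolysis, such as Txnip. Their counts of rises and falls thus need not share a direction. Hif1a, the hypoxia-inducible factor, was at 89.0, 92.7 and 77.7 CPM in untreated wild-type and 65.3, 70.4 and 65.6 CPM in untreated Tespa1-/- LSKs (log2 fold change -0.37 ± 0.08, adjusted p = 0.0430), and at 76.0, 63.7 and 70.0 and 63.7, 60.9 and 62.1 CPM after 5-FU. Myc was at 131, 133 and 163, 185, 209 and 184, 129, 163 and 127 and 129, 136 and 152 CPM in the 4 groups in the usual order, higher in untreated Tespa1-/- than in untreated wild-type LSKs (log2 fold change 0.44 ± 0.10, adjusted p = 0.0363) and falling with 5-FU in Tespa1-/- LSKs (log2 fold change -0.49 ± 0.08, adjusted p = 0.00275). These are transcript levels and say nothing of the proteins. Of 20 regulators, 19 were tested in each comparison. With 5-FU 2 rose and 2 fell in wild-type LSKs, where 3.77% and 4.18% of all genes did, and 1 rose (3 by DESeq2) and 4 fell in Tespa1-/- LSKs, where 10.7% and 8.64% did. In Tespa1-/- against wild-type LSKs 3 were higher and 1 lower untreated (1.64% and 3.59% of all genes), and 2 lower after 5-FU (5.78% of all genes). Txnip, which restrains glucose uptake, rose with 5-FU in wild-type LSKs (log2 fold change 0.73 ± 0.07, adjusted p = 0.000423) but fell in Tespa1-/- LSKs (log2 fold change -0.23 ± 0.05, adjusted p = 0.0164), with a difference of -0.95 ± 0.08 (adjusted p = 2.74e-05).

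Of 13 tested HIF targets outside glycolysis, 2 fell with 5-FU in wild-type LSKs, and 3 fell and 1 rose (2 by DESeq2) in Tespa1-/- LSKs, where 4.18% of all genes fell in the former and 8.64% fell and 10.7% rose in the latter. Vegfa, the vascular growth factor, fell from 308, 306 and 209 CPM to 55.2, 76.2 and 75 CPM in wild-type LSKs (log2 fold change -1.99 ± 0.17, adjusted p = 0.000157) and from 108, 108 and 104 to 61.8, 60.1 and 59.3 CPM in Tespa1-/- LSKs (log2 fold change -0.83 ± 0.06, adjusted p = 2.30e-05), and was lower in untreated Tespa1-/- than in untreated wild-type LSKs (log2 fold change -1.36 ± 0.14, adjusted p = 0.000995).

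The pentose phosphate pathway branches off glucose 6-phosphate to make NADPH and ribose. With 5-FU 5 of its 8 genes rose in Tespa1-/- LSKs, while in wild-type LSKs edgeR and DESeq2 called 0 of 8 (1 at an unadjusted p below 0.05 by edgeR), where 10.7% and 3.77% of all genes were called higher. The difference between these responses passed the interaction test for 2 of the 8 by edgeR and 5 by DESeq2, all positive, where edgeR called 3.02% of all genes positive. After 5-FU 5 of 8 were higher in Tespa1-/- than in wild-type LSKs, among them Pgd (log2 fold change 0.74 ± 0.07, adjusted p = 0.000214), Rpia (log2 fold change 0.67 ± 0.12, adjusted p = 0.00521) and G6pdx (log2 fold change 0.62 ± 0.10, adjusted p = 0.00440). Of the tricarboxylic acid cycle genes, 3 of 17 were higher in the same comparison, or 6 by DESeq2 and 7 at an unadjusted p below 0.05, where 7.34% of all genes were called higher (Mdh2, Cs and Ogdh, log2 fold changes 0.37, 0.31 and 0.23). Of 22 glycolytic isozymes outside the member list, 15 were tested there, and 4 were higher, among them Pklr and Adpgk. Pklr, the pyruvate kinase of red cells and liver, was at 1.82, 2.53 and 0.634 CPM in untreated wild-type, 4.83, 4.84 and 3.84 CPM in untreated Tespa1-/-, 7.41, 4.74 and 6.28 CPM in treated wild-type and 34.8, 36.6 and 30.2 CPM in treated Tespa1-/- LSKs (log2 fold change 2.46 ± 0.19, adjusted p = 5.08e-05). It moved with the erythroid markers given above, whose part was not tested. Adpgk, the ADP-dependent glucokinase, was at 38.4 ± 1.83 CPM (mean ± SD, n = 3) in treated wild-type and 72.3 ± 11.5 CPM in treated Tespa1-/- LSKs (log2 fold change 0.91 ± 0.12, adjusted p = 0.00117). The partners of pyruvate entry, such as the mitochondrial pyruvate carrier, gave 0 called of 12 between treated genotypes by edgeR, with 1 at an unadjusted p below 0.05 and 1 by DESeq2. Of 4 tested gluconeogenesis genes, 1 was higher there (Pck2, log2 fold change 0.34 ± 0.08, adjusted p = 0.0195).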

How the data were processed

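RNA-seq was performed by the authors on LSKs, sequenced at both ends from poly-A libraries that keep the strand. They deposited 1 table with counts of reads per gene, without normalization, and FPKM values, scaled by the authors by gene length and library size. The submitters' processing notes name CASAVA 1.8, HISAT2, StringTie, edgeR and GRCm38. How reads with several matches were counted, and whether strand was used, is not given in the sources used here.

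Groups came from the labels. The quasi-likelihood test of edgeR 4.0.16 (R 4.3.3) was run on counts, with TMM factors and genes kept by filterByExpr (minimum count 10), over the 6 libraries of each comparison and, for the interaction, on all 12. Each p was adjusted by Benjamini-Hochberg over all 17002 to 18696 genes tested, and called below 0.05. SE was calculated as the absolute log2 fold change over the square root of the F statistic of the test. The 95% intervals were built from that SE and the t distribution. FPKM served only for levels between isozymes. Between 22118154 and 28275079 reads per library were counted, and 3 counts was the detection limit, which covers counting error only. The tests were checked on simulated counts.

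Values in every library are given for each member called at least once, and other members by range, in part or without values. Tespa1, Hif1a and Myc are always named, and of each other pathway list at most the 3 called genes with the largest change per comparison and a mean of at least 1 CPM. The members and lists were chosen with earlier results of these data known. Alternatives were DESeq2 1.42.0, RLE factors, library totals, no filter, a minimum of 10 counts per library, 1 fit of all 12 libraries, a replicate block, a fold change above 1.5, the study's thresholds (unadjusted p below 0.05 and the same fold) and each library left out. Adding the counts of copies was chosen after the data were seen. Copies were genes sharing at least 100 stretches of 50 bases, on either strand, with the longest transcript of a member in GENCODE M21. They need not be near-identical, and include genes that overlap on the opposite strand, Map3k15 for Pdha1 and Hk1os for Hk1. Promoters are from RefSeq. Other steps used Python 3.11, pandas 2.3.3 and matplotlib 3.10.9.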

Additional observations from a re-analysis of the deposited data

Results flagged for a closer look

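For 3 members the 5-FU response differed between genotypes in the interaction test over all 12 libraries. On the log2 scale the response of Tespa1-/- LSKs minus that of wild-type LSKs was 0.59 for Hk1, 0.63 for Hk2 and 0.66 for Gpi1, with the values of every library given above. The sets of 3 libraries were too small for a search for single outlying libraries.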

How the results depend on the processing

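Of the 33 member results called, DESeq2 and the minimum of 10 counts in every library kept 33, RLE factors 32, library totals 30, no filter 29 and the replicate block 27, while the fit on all 12 libraries kept 26 of the 30 it can give (it has no separate interaction value). The fold threshold of 1.5 and the study's thresholds each kept 16. For members higher with 5-FU in wild-type LSKs, DESeq2 and the study's thresholds gave 1 in place of 0, and for members lower the block, the fold threshold, the study's thresholds and the added copies gave 1 in place of 2. In Tespa1-/- LSKs the fold threshold and the study's thresholds gave 3 higher with 5-FU in place of 9. Between untreated genotypes, no filter and both thresholds gave 0 higher in place of 1, and both thresholds and the added copies gave 3 lower in place of 5. Between treated genotypes both thresholds gave 2 higher in place of 8. The positive interactions were 5 in place of 3 with DESeq2, the study's thresholds and the added copies, and the study's thresholds gave 1 negative interaction. Copies were added after the data had been seen, and with them Eno1 turned from lower to a log2 difference of 0.14 between untreated genotypes.

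The replicate numbers did not pair the libraries, since deviations of same-numbered libraries correlated between -0.066 and 0.029 across genes. With the replicate block, members between treated genotypes were 5 higher in place of 8 and 2 lower in place of 4. The calls not made there were Slc16a1, Pgam1, Ldha, Slc2a3 and Pdk2 between treated genotypes (adjusted p = 0.0558 to 0.0905) and Gapdh with 5-FU in wild-type LSKs (adjusted p = 0.0539).

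With each library left out in turn, the counts of members ran from 0 to 1 higher and 1 to 2 lower with 5-FU in wild-type LSKs, from 7 to 10 higher and 1 to 1 lower in Tespa1-/- LSKs, from 0 to 1 higher and 3 to 5 lower between untreated genotypes, from 4 to 7 higher and 1 to 3 lower between treated genotypes, and from 2 to 4 with a positive and 0 with a negative interaction. Over all genes, the number called moved by over 1.5 times from 1352 with 5-FU in wild-type LSKs to 2062 (DESeq2), 2113 (fit of 12 libraries), 753 (fold threshold) and 783 at the lowest with a library left out. It moved from 892 between untreated genotypes to 1427 (DESeq2), 454 (block), 428 (fold threshold) and 338 (library left out), and from 936 for the interaction to 1535 (DESeq2), 1941 (study's thresholds), 601 (fold threshold) and 573 (library left out). The fold threshold took 3336 with 5-FU in Tespa1-/- LSKs to 1735 and 2261 between treated genotypes to 1204. The cause of these changes was not tested. The single higher call between untreated genotypes was lost without any 1 of 5 of the 6 libraries. Eno2 and Pdk4 were near the limit of 3 counts in several libraries.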
